A study of Mus musculus with 6 samples.

Results

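The Bcl-2 family of apoptosis regulators was examined in 6 RNA sequencing libraries of mouse bone marrow-derived macrophages (BMDMs). The genes described are the 10 rows of the gene table named Bcl2, Bcl2l1, Mcl1, Bcl2a1b, Bcl2a1d, Bax, Bak1, Bid, Bcl2l11 and Pmaip1, out of 54532 genes listed. The rule took them by name, with earlier results of these data known. Each macrophage culture had been combined in vitro with ID8 cells, a mouse ovarian cancer line. In 3 libraries these tumour cells had beforehand received cisplatin at 40 µM, and in the other 3 only phosphate-buffered saline (PBS). Cisplatin is a platinum compound that damages DNA. These are called the cisplatin and PBS libraries, and the drug was given to the tumour cells before the macrophages were added. The marrow came from C57BL/6 mice, and the collected cells are called monocytes in the study's methods and BMDM in the labels. The duration of the co-culture, whether the cells were in contact and how they were separated again are not given in the sources used here. The study's methods speak in general of biological replicates and of molecular and cellular experiments done in triplicate. Neither they nor the labels say whether the libraries of a group came from separate mice or cultures. If they did not, the p-values measure only a technical spread.

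Bcl-2 family proteins decide whether the outer membrane of the mitochondrion stays intact. BAX and BAK, encoded by Bax and Bak1, are the effectors that form pores in it and release cytochrome c, which leads to caspase activation. BCL-2, BCL-XL (Bcl2l1), MCL-1 and A1 (the Bcl2a1 genes) hold the effectors in check, and the BH3-only proteins BID, BIM (Bcl2l11) and NOXA (Pmaip1) either activate the effectors or occupy the protective proteins. MCL-1 and A1 are short-lived proteins whose amount is also set by ubiquitination and degradation, and A1 is known as a target of inflammatory signalling. The mouse carries several near-identical copies of the A1 gene on chromosome 9.

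The A1 copies show how alike these genes are, and their promoters are printed for that reason. The promoter entries of RefSeq for GRCm38.p6 run from 250 bases before the annotated transcript start to 50 bases after it, and 9 of the 10 members have one. Capitals mark the AP-1 motif TGANTCA and the PU.1 motif GAGGAAGT, PU.1 being the myeloid transcription factor encoded by Spi1.
Bcl2a1b, chr9:89199023-89199322, plus strand: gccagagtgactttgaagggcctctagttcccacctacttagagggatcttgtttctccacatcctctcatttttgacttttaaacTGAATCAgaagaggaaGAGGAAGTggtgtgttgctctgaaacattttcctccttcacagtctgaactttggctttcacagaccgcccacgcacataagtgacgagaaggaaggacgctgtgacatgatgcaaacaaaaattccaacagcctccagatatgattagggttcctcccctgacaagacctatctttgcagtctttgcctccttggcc
Bcl2a1d, chr9:88731801-88732100, minus strand: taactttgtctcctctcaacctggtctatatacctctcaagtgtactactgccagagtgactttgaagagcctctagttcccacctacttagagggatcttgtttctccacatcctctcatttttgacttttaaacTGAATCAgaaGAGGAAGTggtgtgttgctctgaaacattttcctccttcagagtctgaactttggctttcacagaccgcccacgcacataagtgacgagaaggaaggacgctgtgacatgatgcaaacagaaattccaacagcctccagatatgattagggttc
Bcl2a1a, chr9:88956670-88956969, plus strand: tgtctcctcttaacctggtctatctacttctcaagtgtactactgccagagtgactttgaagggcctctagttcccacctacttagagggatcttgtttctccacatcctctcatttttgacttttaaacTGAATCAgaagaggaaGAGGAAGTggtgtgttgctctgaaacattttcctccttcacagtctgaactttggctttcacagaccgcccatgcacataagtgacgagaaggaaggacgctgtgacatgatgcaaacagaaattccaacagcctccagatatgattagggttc
Bcl2a1a is a further copy that is not among the 10 members and is shown because reads of the copies may be shared. In all 3 copies an AP-1 motif stood just upstream of a PU.1 motif. The PU.1 motif began 148 bases before the start of Bcl2a1b and 104 bases before the starts of Bcl2a1d and Bcl2a1a. The AP-1 motif lay 164, 114 and 120 bases before the starts of Bcl2a1b, Bcl2a1d and Bcl2a1a. Each copy also held TGATGNAA, a composite motif of C/EBP and ATF factors, 40 bases before the start of Bcl2a1b and 4 bases after the starts of the other copies. On either strand, the PU.1 motif was present in 3.20%, the AP-1 motif in 7.81% and the C/EBP-ATF motif in 3.97% of 32851 promoters of the same length. The aligned promoters of Bcl2a1b and Bcl2a1d differed at 3 of 250 bases with gaps left out, besides the shorter spacing of the AP-1 and PU.1 motifs in Bcl2a1d, so their shared motifs are not independent of each other.

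The promoter of Bax is shown beside them because Bax had the highest log2 fold change of the 10 members, although its interval overlapped those of both A1 members. Capitals mark 2 copies of the E-box CACGTG, the motif of MYC and related factors, and one match to a p53 half-site of 10 bases, of which a full p53 response element holds a pair.
Bax, chr7:45466849-45467148, minus strand: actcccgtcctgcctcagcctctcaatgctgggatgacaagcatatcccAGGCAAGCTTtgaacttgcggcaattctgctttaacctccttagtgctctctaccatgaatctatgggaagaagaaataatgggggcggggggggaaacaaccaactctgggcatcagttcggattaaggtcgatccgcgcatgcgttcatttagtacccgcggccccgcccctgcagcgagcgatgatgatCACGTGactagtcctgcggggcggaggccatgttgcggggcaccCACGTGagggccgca
The E-boxes began 9 bases before and 35 bases after the start, and the p53 half-site began 201 bases before it. An E-box was found in 7.15% of the promoters and a p53 half-site in 8.36%. Among the other members, the upstream promoter entry of Bcl2l11 matched the forkhead motif TGTTTAC, which was found in 3.65% of promoters. The downstream entry of Bcl2l11 did not match it. Bak1 matched the PU.1 motif. A match to the NF-kB motif, found in 4.51% of promoters, lay in one promoter of Bcl2l1, and none of the 9 members searched matched the interferon response motif. Pmaip1 was the member without an entry. These 8 motifs were picked after a first look at the promoters. A match is a description of the letters in this window and does not show that a factor binds there.

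The libraries held between 15776238 and 17924686 reads on genes, as recovered from the deposited values, and at least 149 reads lay behind every value of a member. The values are fragments per kilobase and library depth (FPKM), a level per gene length that allows different genes to be set side by side. Libraries of the same group correlated at 0.984 to 0.989 over genes, and libraries of different groups at 0.871 to 0.877. All 10 members passed the filter of at least 1 FPKM in at least 3 libraries, as did 13441 genes in all. Differences were tested by limma on log2(FPKM + 1) with Benjamini-Hochberg adjustment over these genes, and a gene is said to have risen or fallen where its adjusted p was under 0.05.

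Cell type markers moved with the comparison. The 12 ID8 and mesothelial markers summed to 1333 to 1444 FPKM in the PBS libraries and 247 to 270 FPKM in the cisplatin libraries, and all 10 that were tested fell. Krt19 alone, an epithelial keratin, stood at 554 to 605 FPKM in the PBS libraries and 46.8 to 54.0 FPKM in the cisplatin libraries. The 8 macrophage markers summed to 1635 to 1647 FPKM in the PBS libraries and 4187 to 4341 FPKM in the cisplatin libraries, and all 8 rose. Adgre1, which encodes F4/80, and Csf1r, the receptor of the macrophage growth factor, were detected in every library. Neutrophil markers also rose, 7 of 8, with sums of 4828 to 4975 FPKM in the PBS libraries and 8821 to 9034 FPKM in the cisplatin libraries. Of the lymphocyte markers 4 of the 5 tested rose (112 to 121 FPKM summed in PBS, 266 to 272 in cisplatin). All 5 mast cell and basophil markers rose (51.8 to 56.9 FPKM summed in PBS, 154 to 171 in cisplatin). Dendritic cell markers gave 3 rises and 1 fall among 4 tested, with sums of 17.1 to 18.4 FPKM in PBS and 34.2 to 36.5 FPKM in cisplatin. Neither of the 2 erythroid markers tested passed (58.1 to 60.1 FPKM summed in PBS, 58.9 to 66.5 in cisplatin). No marker was at 0 in all libraries. ID8 cells are mouse cells, so their transcripts cannot be separated from those of the macrophages by sequence, and in bulk RNA a change in the number of cells of a type and a change in RNA per cell cannot be told apart. The part of these shifts in the results below was not tested.

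Across the family, A1 and Bax were about equally higher in the cisplatin libraries, Bcl2l1, Bid and Pmaip1 were moderately higher, Bcl2 was lower, and Mcl1, the most abundant member, did not pass the test. Of the 10 members 6 rose, 3 fell and 1 did not pass. The groups did not overlap in 9 of the 10. Of all tested genes 32.9% rose, 35.1% fell and 68.0% did either, and the groups did not overlap in 72.4%. No member combined a change of at least 2-fold with an adjusted p under 0.05 in limma, although 9 had an unadjusted p under 0.05, as did 9502 of all 13441 genes tested. By the rule of both thresholds 4.67% of tested genes were higher and 11.3% lower, 15.9% in all. The count was also 0 by voom on recovered reads. Under the alternatives that left the A1 copies as separate rows 6 members rose, whereas the number that fell ran from 1 to 3. Bak1 and Bcl2l11 lost their calls in some of them, Bcl2 was not tested with a filter at 5 FPKM, and Mcl1 gained a call under quantile normalisation. The median log2 fold change of the members was 0.25, against -0.0011 over all genes tested, and the median size of change was 0.34 on the log2 scale, against 0.39 over all genes.

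**Figure D1:**
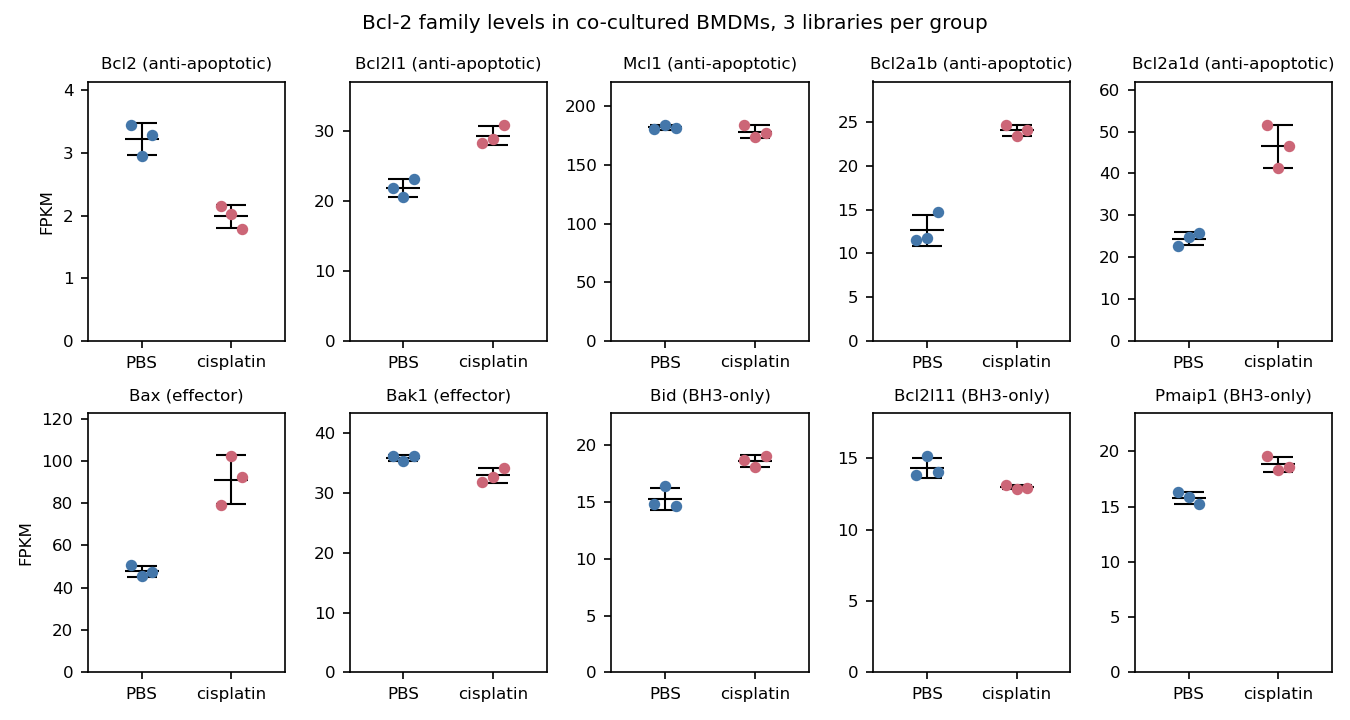
FPKM of the 10 members in each library, with 3 PBS libraries in blue and 3 cisplatin libraries in red, and bars for the mean and SD. Each panel has its own axis from 0. Bax stands at 45.5 to 50.7 FPKM in PBS and 78.9 to 102.2 FPKM in cisplatin, while the Mcl1 libraries of both groups overlap.

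Among the protective genes, Mcl1 (ENSMUSG00000038612, chromosome 3, 95658788 to 95663176) had the highest level of all members. Its 3 PBS libraries held 181, 184 and 181 FPKM and its 3 cisplatin libraries 184, 174 and 178 FPKM. The groups overlapped, and the mean was 182 ± 2.01 FPKM in PBS and 178 ± 5.30 FPKM in cisplatin (SD, n = 3 in each). The log2 fold change was -0.029 with a 95% interval of -0.11 to 0.051 (adjusted p = 0.469). With 9605 to 10930 reads behind each value, the interval leaves room for changes of up to these bounds and does not show that the level was equal. Scaling by the total of recovered reads turned the sign, to 0.058, and quantile normalisation gave -0.11 with an adjusted p of 0.0336.

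Transcripts of the A1 copies rose together. Bcl2a1d (ENSMUSG00000099974, chromosome 9, 88723285 to 88731914) read 22.8, 24.8 and 25.8 FPKM in the PBS libraries and 51.6, 41.2 and 46.5 FPKM in the cisplatin libraries. Every cisplatin library was above every PBS library. Its log2 fold change was 0.90 (SE 0.086, 95% interval 0.69 to 1.10, adjusted p = 9.5e-05). Bcl2a1b (ENSMUSG00000089929, chromosome 9, 89199209 to 89207827) stood lower, at 11.5, 11.7 and 14.7 FPKM in PBS and 24.7, 23.4 and 24.1 FPKM in cisplatin. Here too the groups were apart, and the 3 cisplatin libraries lay within a narrow range. The log2 fold change of Bcl2a1b was 0.89 (SE 0.090, 95% interval 0.67 to 1.10, adjusted p = 0.000121). Bcl2a1b overlaps the protein-coding gene Gm29094 on the same strand, which had means of 0.061 FPKM in PBS and 0.091 FPKM in cisplatin. How reads in the overlap were counted is not stated, so the level of Bcl2a1b may be affected. The ratio of Bcl2a1d to Bcl2a1b in FPKM ran from 1.76 to 2.12 in PBS and from 1.76 to 2.09 in cisplatin, so the balance of these copies overlapped between the groups. The A1 genes rose in the same libraries as the markers of macrophages (8 of 8), neutrophils (7 of 8), mast cells and basophils (5 of 5) and lymphocytes (4 of 5), whose median log2 fold changes were 0.90, 0.96, 1.48 and 1.04.

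The split between the copies is uncertain, because the transcripts of Bcl2a1b and Bcl2a1d differed at only 7 of 817 aligned bases, gaps left out (99.1% identity). Bcl2a1a differed from Bcl2a1b at 15 of 817 bases and from Bcl2a1d at 10 of 819. Of all stretches of 100 bases, 68.9% in the Bcl2a1b transcript, 45.3% in Bcl2a1d and 56.5% in Bcl2a1a occurred in no other copy. Bcl2a1a, which is not a member, read 15.9, 19.2 and 11.97 FPKM in PBS and 44.3, 37.3 and 44.2 FPKM in cisplatin (log2 fold change 1.38, SE 0.16, adjusted p = 0.000232). Its groups did not overlap either. Bcl2a1c was listed at 0 in every library. With the reads of the A1 rows summed, which removes the question of how reads were divided among them, the PBS libraries held 744, 727 and 683 reads and the cisplatin libraries 1718, 1400 and 1586 reads. Summing does not restore reads left out because they match several copies, and the sources do not say how such reads were handled. The log2 fold change of the summed row was 1.07 (SE 0.070, adjusted p = 1.37e-05), past the 2-fold threshold that neither member passed on its own. The sum includes the non-member Bcl2a1a, whose own log2 fold change of 1.38 was past that threshold.

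Bcl2l1 rose and Bcl2 fell. Bcl2l1 (ENSMUSG00000007659, chromosome 2, 152780668 to 152831728) was at 21.8, 20.6 and 23.1 FPKM in the PBS libraries and 28.3, 28.8 and 30.9 FPKM in the cisplatin libraries. The groups did not overlap, and the log2 fold change was 0.41 (SE 0.056, 95% interval 0.28 to 0.54, adjusted p = 0.000541). Bcl2 (ENSMUSG00000057329, chromosome 1, 106538178 to 106714274), the founding gene of the family, was the least abundant member, at 3.45, 2.94 and 3.28 FPKM in PBS and 2.15, 2.02 and 1.79 FPKM in cisplatin. All cisplatin libraries were below all PBS libraries. Its log2 fold change was -0.50 (SE 0.082, 95% interval -0.70 to -0.30, adjusted p = 0.00143), on a scale that understates changes at such low levels. With a pseudocount of 0.1 in place of 1 it was -0.67. Between 271 and 559 reads lay behind the values of Bcl2.

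Of the 2 effector genes, Bax rose, whereas Bak1 was slightly lower with a call that was lost under several alternatives. Bax (ENSMUSG00000003873, chromosome 7, 45461697 to 45466898) read 50.7, 45.5 and 47.3 FPKM in the PBS libraries and 78.9, 102 and 92.3 FPKM in the cisplatin libraries. The groups were far apart, and the cisplatin libraries varied more than the PBS libraries, with means of 91.1 ± 11.7 and 47.8 ± 2.62 FPKM (SD, n = 3 in each). The log2 fold change of Bax was 0.91 (SE 0.094, 95% interval 0.69 to 1.13, adjusted p = 0.000131). Without cisplatin replicate 1, the lowest cisplatin library, it was 1.01 and passed the 2-fold threshold.

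Bak1 (ENSMUSG00000057789, chromosome 17, 27019810 to 27029009) was at 36.1, 35.3 and 36.1 FPKM in PBS and 31.9, 32.7 and 34.2 FPKM in cisplatin. The groups did not overlap, but the log2 fold change was -0.12 (SE 0.039, 95% interval -0.21 to -0.027, adjusted p = 0.0295). This call was lost without PBS replicate 1 (adjusted p = 0.0808), PBS replicate 3 (0.0807), cisplatin replicate 1 (0.0731) or cisplatin replicate 2 (0.0836). The log2 fold change stayed between -0.15 and -0.096 with single libraries left out, in fits that hold fewer libraries. The call was also lost by voom on recovered reads (adjusted p = 0.0714), a replicate block (0.0690), quantile normalisation (0.480) and scaling by total reads (0.474). The ratio of Bax to Bak1 in FPKM was 1.40, 1.29 and 1.31 in the PBS libraries and 2.48, 3.12 and 2.70 in the cisplatin libraries. That ratio does not depend on how a library is scaled, and its groups did not overlap.

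Of the 3 BH3-only members, Bid and Pmaip1 rose and Bcl2l11 fell, all by small amounts. Bid (ENSMUSG00000004446, chromosome 6, 120891930 to 120916853), whose protein is cut by caspase-8 below death receptors, was at 14.8, 16.4 and 14.7 FPKM in PBS and 18.7, 18.03 and 19.0 FPKM in cisplatin. Every cisplatin library exceeded every PBS library (log2 fold change 0.27, SE 0.053, 95% interval 0.14 to 0.39, adjusted p = 0.00361). Bid overlaps Bcl2l13 on the opposite strand, and the sources do not say if reads were counted by strand, so reads of the pair may be mixed. Bcl2l13 went the other way, from a mean of 9.79 FPKM in PBS to 7.03 FPKM in cisplatin. Pmaip1 (ENSMUSG00000024521, chromosome 18, 66458604 to 66465550), whose protein NOXA binds MCL-1, read 16.3, 15.8 and 15.3 FPKM in PBS and 19.6, 18.3 and 18.6 FPKM in cisplatin. Its groups were apart as well (log2 fold change 0.24, SE 0.045, 95% interval 0.13 to 0.34, adjusted p = 0.00278).

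Bcl2l11 (ENSMUSG00000027381, chromosome 2, 128126038 to 128162547), which encodes BIM, was at 13.8, 15.1 and 14.0 FPKM in the PBS libraries and 13.1, 12.9 and 12.9 FPKM in the cisplatin libraries. The cisplatin libraries lay close together just below the lowest PBS library. The log2 fold change was -0.13 (SE 0.047, 95% interval -0.24 to -0.022, adjusted p = 0.0392). Leaving out single libraries ended this call in 5 of 6 cases, with adjusted p-values of 0.0965 without PBS replicate 2, 0.0628 without PBS replicate 3, and 0.0609, 0.101 and 0.0992 without cisplatin replicates 1, 2 and 3. It was also lost without a filter (adjusted p = 0.0604), with a replicate block (0.0890), under quantile normalisation (0.296) and under scaling by total reads (0.335). Set against Mcl1, the FPKM of Bcl2l11 was 0.0765 to 0.0821 of it in PBS and 0.0713 to 0.0741 in cisplatin. Pmaip1 was 0.0842 to 0.0904 of Mcl1 in PBS and 0.105 to 0.106 in cisplatin. Neither of these ratios overlapped between the groups.

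**Figure D2:**
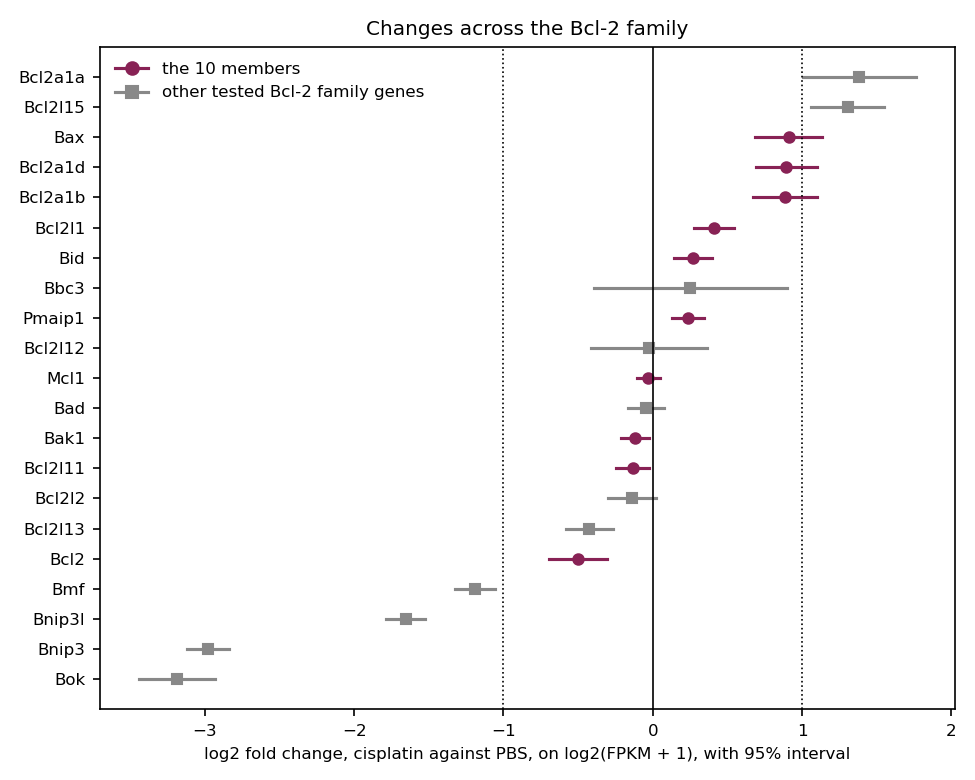
Log2 fold change of cisplatin against PBS on log2(FPKM + 1), with 95% intervals, for the 10 members (purple circles) and the 11 other Bcl-2 family genes tested (grey squares); dotted lines mark a 2-fold change. The members lie between -0.50 for Bcl2 and 0.91 for Bax, whereas Bok and Bnip3 lie near -3 and Bcl2a1a and Bcl2l15 above 1.

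The order of levels differed between the groups in its middle. In the PBS libraries it ran Mcl1, Bax, Bak1, Bcl2a1d, Bcl2l1, Pmaip1, Bid, Bcl2l11, Bcl2a1b and Bcl2. The ranges of Bcl2a1d and Bcl2l1 overlapped there, as did those of neighbours from Pmaip1 to Bcl2a1b. In the cisplatin libraries the order was Mcl1, Bax, Bcl2a1d, Bak1, Bcl2l1, Bcl2a1b, Pmaip1, Bid, Bcl2l11 and Bcl2, and only Pmaip1 and Bid overlapped among neighbours. Bcl2a1d thus stood below Bak1 in every PBS library and above it in every cisplatin library, and Bcl2a1b moved from below Bid to above it by mean. These places depend on how reads were split among the A1 copies. Summed, the A1 rows stood at 50.5 to 56.0 FPKM in the PBS libraries, already above Bak1. Mcl1 kept the first place and Bcl2 the last.

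Because the protective proteins act in part interchangeably, the share of each transcript in their sum was also taken, over Mcl1, Bcl2l1, Bcl2, Bcl2l2 (which encodes BCL-W) and the 3 detected A1 copies. The sum was 267 ± 3.65 FPKM in PBS and 328 ± 14.5 FPKM in cisplatin (SD, n = 3 in each). Mcl1 made up 68.7%, 68.3% and 67.7% of it in the PBS libraries and 54.0%, 55.6% and 53.5% in the cisplatin libraries. The A1 copies together made up 19.1%, 20.6% and 19.6% in PBS and 35.4%, 32.6% and 34.6% in cisplatin. Neither share overlapped between the groups, and the difference of means was -13.9 percentage points for Mcl1 and 14.4 for the A1 copies. The exact permutation test over libraries (two-sided) gave p = 0.1 for each, the smallest value that 3 against 3 allows, so it could not reach 0.05. The share of Bcl2 went from 1.21 ± 0.11% to 0.61 ± 0.057%, while that of Bcl2l1 overlapped between the groups (8.18 ± 0.52% and 8.94 ± 0.56%, exact permutation p = 0.2). Shares of one sum are tied to each other, so the lower share of Mcl1 and the higher share of A1 are not independent, and the level of Mcl1 itself did not pass the test. The sizes depended on the scale. Taken over reads and not per gene length, the difference was -6.27 points for Mcl1, 1.98 for Bcl2a1d, 2.33 for Bcl2a1a, 0.98 for Bcl2a1b and 3.12 for Bcl2l1, against 0.76 for Bcl2l1 per length. The latter was 0.47 without PBS replicate 2 and 1.08 without cisplatin replicate 1.

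**Figure D3:**
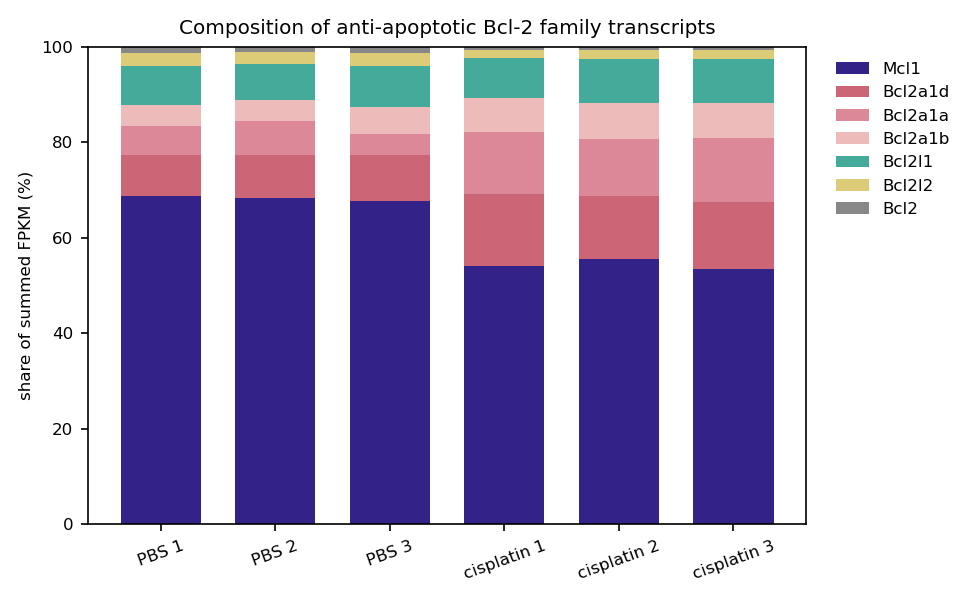
Share of each protective Bcl-2 family transcript in their summed FPKM (%), stacked to 100% for each of the 6 libraries. Mcl1 takes 67.7% to 68.7% in the PBS libraries and 53.5% to 55.6% in the cisplatin libraries, and the A1 copies (red shades) together take 19.1% to 20.6% and 32.6% to 35.4%.

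Some other genes of the family had larger changes than any of the 10 members. Of 16 further family genes, 11 were tested, of which 2 rose, 5 fell and 4 did not pass, with a median log2 fold change of -0.14. Both rises and 4 of the falls were of at least 2-fold. Among all tested genes 32.9% rose and 35.1% fell, and 4.67% and 11.3% did so by at least 2-fold. Bok, a relative of the effectors, was at 58.5, 50.6 and 61.5 FPKM in PBS and 4.57, 5.40 and 6.12 FPKM in cisplatin (log2 fold change -3.19, SE 0.11, adjusted p = 6.04e-07). Bnip3 and Bnip3l, which encode mitophagy receptors and are known targets of the hypoxia response, went from 102 ± 1.15 to 12.1 ± 1.05 FPKM and from 81.9 ± 3.06 to 25.3 ± 1.63 FPKM. Their log2 fold changes were -2.98 (SE 0.059, adjusted p = 8.76e-08) and -1.66 (SE 0.055, adjusted p = 5.76e-07). For all 3 genes every cisplatin library was below every PBS library, in the same direction as the ID8 markers above, and how much of their level came from ID8 cells was not tested. Bcl2l15 was near the limit of detection in PBS, at 0.062 to 0.12 FPKM from as few as 3 reads, and at 1.56 to 1.86 FPKM in cisplatin, so its fitted change depends on the pseudocount. Among BH3-only genes outside the members, Bmf fell from 15.2 ± 0.43 FPKM in PBS to 6.11 ± 0.41 FPKM in cisplatin (log2 fold change -1.19, SE 0.056, adjusted p = 2.74e-06), and its groups did not overlap. Bbc3, which encodes PUMA, varied within the groups, at 3.45 to 6.84 FPKM in PBS and 4.21 to 7.91 FPKM in cisplatin (adjusted p = 0.44).

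Among genes of the mitochondrial pathway, which act at or downstream of the outer membrane, 3 of 13 rose and 5 fell, with a median log2 fold change of -0.16. Over all tested genes 32.9% rose and 35.1% fell. Vdac1, the main channel of the outer membrane, was at 179 ± 8.27 FPKM in PBS and 66.9 ± 1.30 FPKM in cisplatin (log2 fold change -1.40, SE 0.042, adjusted p = 3.69e-07). Casp6, an executioner caspase, was at 5.38 ± 0.066 and 1.72 ± 0.19 FPKM (log2 fold change -1.23, SE 0.072, adjusted p = 7.76e-06). These were the only genes of that list past the 2-fold threshold. Of the 8 inhibitors of apoptosis 2 rose and 3 fell, all by less than 2-fold, with a median of -0.15. The share of all tested genes that rose or fell was 68.0%. Birc2, a ubiquitin ligase of the TNF receptor pathway, had a log2 fold change of -0.59 (adjusted p = 3.16e-05), Naip2 of 0.30 (adjusted p = 0.0116) and Xiap, which blocks caspases directly, of 0.26 (adjusted p = 0.0032).

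In the death receptor arm, which leads to the cutting of BID, 2 of 9 genes rose and 4 fell, with a median of -0.032. The shares over all tested genes were 32.9% and 35.1%, with 68.0% for either. Ripk1, the kinase of the TNF receptor complex, had a log2 fold change of 0.42 (adjusted p = 0.000411), the adaptor Tradd of -0.35 (adjusted p = 0.00692) and the receptor Fas of -0.31 (adjusted p = 0.000231). Among 8 genes listed for the turnover or binding of MCL-1 or BIM, none rose and 4 fell by less than 2-fold. Their median was -0.22, and 4 of 8 had an unadjusted p under 0.05 in limma, against 9502 of 13441 over all genes. The 3 with the largest changes were Btrc, a ubiquitin ligase adaptor, at -0.52 (adjusted p = 0.000768), Ywhaz, a 14-3-3 protein, at -0.49 (adjusted p = 1.28e-05), and Dynll1, a dynein light chain that binds BIM, at -0.35 (adjusted p = 7.59e-05).

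Of 16 transcription factors known to act on genes of the family, 15 were tested, of which 8 rose and 5 fell, with a median of 0.11. None passed the 2-fold threshold, and 13 of 15 had an unadjusted p under 0.05 in limma, against 9502 of 13441 over all genes. Spi1, which encodes PU.1, went from 55.5 ± 2.48 FPKM in PBS to 106 ± 6.19 FPKM in cisplatin (log2 fold change 0.92, SE 0.055, adjusted p = 8.46e-06). Atf4, a factor of the integrated stress response, went from 77.9 ± 3.04 to 148 ± 1.99 FPKM (log2 fold change 0.92, SE 0.038, adjusted p = 1.52e-06). Myc went from 25.1 ± 1.46 to 39.9 ± 1.13 FPKM (log2 fold change 0.65, SE 0.050, adjusted p = 2.99e-05). Spi1 is itself a gene of macrophages and other myeloid cells, and it moved with the macrophage and neutrophil markers, among others. Over the wider lists together, 17 of 64 tested genes rose and 26 fell, with a median of -0.12, and 2 rose and 6 fell by at least 2-fold. The matching shares of all tested genes were 32.9% and 35.1%, and 4.67% and 11.3% by at least 2-fold.

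**Figure D4:**
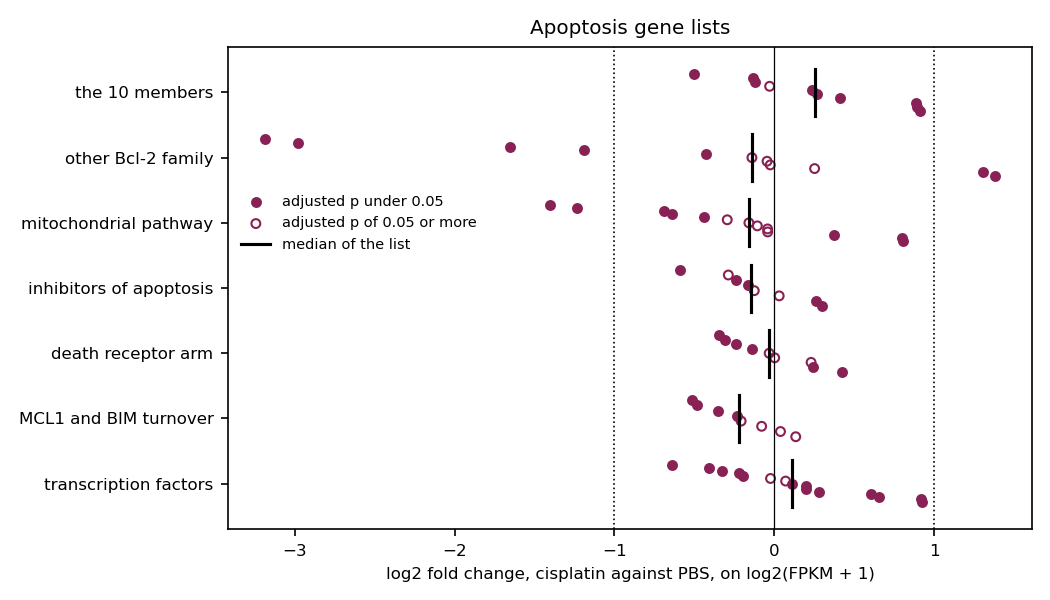
Log2 fold change of cisplatin against PBS on log2(FPKM + 1) for the tested genes of each apoptosis list, filled where the adjusted p was under 0.05 and open otherwise. Black bars give each list's median and dotted lines a 2-fold change. The medians run from -0.22 for the MCL1 and BIM turnover list, which includes binding partners, to 0.25 for the 10 members.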

How the data were processed

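Poly-T selected RNA of 6 libraries was measured by RNA sequencing. The deposited table holds FPKM computed by the authors for 54532 genes in each library, with gene lengths and coordinates, and counts were not used here. The sources differ on its making. The submitters' processing notes name fastp, HISAT2 2.0.5, featureCounts 1.5.0-p3 and mm10, whereas the study's methods name LifeScope for alignment and DESeq2 for tests at an adjusted p under 0.05 and a 2-fold change. Strand use is not stated. GENCODE M21 (GRCm38) holds 54495 of the identifiers, 98.3% at the same coordinates.

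FPKM times length was a whole multiple of one step for 100% of values under 200 reads (tolerance 0.02 reads), which gave the recovered reads. The FPKM denominator was 97.4% to 98.7% of these reads in PBS and 103.7% to 104.1% in cisplatin libraries.

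The study's test on counts was replaced by limma 3.58.1 (R 4.3.3; lmFit, eBayes with a trend, two-sided) on log2(FPKM + 1), with group as the only term, for genes with at least 1 FPKM in at least 3 libraries. P-values were adjusted by Benjamini-Hochberg over all 13441 genes. Fold changes on this scale understate changes of low genes. Shares were compared by an exact permutation test over libraries. The procedure was tested on simulated data.

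The members and lists were chosen with earlier results of these data known. The 10 members are named whatever their values. From each wider list the text names the 3 genes with the largest change past both thresholds, or past the adjusted p alone where none passed both. Bcl2a1a, Bcl2a1c, Bcl2l2, Bcl2l13, Bcl2l15, Bmf, Bbc3, Krt19, Adgre1 and Csf1r were named in addition, after their values were seen. Motifs were searched on both strands with no mismatch.

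Alternatives were TPM rescaling, a pseudocount of 0.1, a filter at 5 FPKM or none, median-of-ratios scaling, quantile normalisation, limma voom on recovered reads, a replicate block, leaving out each library, the adjusted p alone, summed A1 rows, and shares by reads. Scaling by total reads was added after seeing the data.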

Additional observations from a re-analysis of the deposited data

How the results depend on the processing

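The rises of Bcl2l1, both A1 members, Bax, Bid and Pmaip1 and the fall of Bcl2 kept their direction and an adjusted p under 0.05 (limma, Benjamini-Hochberg) under every alternative in which the gene was tested, while Bak1 and Bcl2l11 did not. Bcl2 was under the filter at 5 FPKM. For Bak1 the log2 fold change was -0.031 under quantile normalisation, -0.11 by voom on recovered reads, -0.034 under scaling by total reads and -0.15 to -0.096 with single libraries left out. For Bcl2l11 it was -0.13 without a filter, -0.063 under quantile normalisation, -0.052 under scaling by total reads and -0.16 to -0.095 with single libraries left out. Mcl1 was at -0.11 under quantile normalisation and at 0.058 under scaling by total reads. Quantile normalisation moved the median of all genes to 0.10 and the counts past both thresholds to 835 higher and 1290 lower, from 628 and 1514. By the adjusted p alone, 5349 genes were higher and 4006 lower under quantile normalisation. Scaling by total reads gave 5130 and 4201, against 4424 and 4721 in the main fit. Total-read scaling replaces the FPKM denominator, which was 97.4% to 98.7% of the recovered reads in PBS and 103.7% to 104.1% in cisplatin libraries. That scaling moved the median of all genes to 0.073. Why the denominators differed, and the cause of the shifts under quantile normalisation, was not tested.

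Same-numbered libraries of the groups did not deviate together (correlations -0.10, -0.086 and -0.024), so the numbers are not taken to pair them. With a replicate block, Bak1 kept a log2 fold change of -0.12 (adjusted p = 0.0690) and Bcl2l11 of -0.13 (adjusted p = 0.0890), and both calls were lost. The block changed the call of no other member.

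Past both thresholds, members numbered 0 to 1 higher with single libraries left out, and by the adjusted p alone 6 higher and 3 lower. Over all genes the higher count was 973 with a pseudocount of 0.1, 1024 by voom and 4424 by the adjusted p alone, where 4721 were lower. The wider lists gave 1 higher with the filter at 5 FPKM, 4 under scaling by total reads and 17 by the adjusted p alone, where 26 were lower, against 2 and 6. Shares taken over reads and not per length changed by -6.27 points for Mcl1, 1.98 for Bcl2a1d, 2.33 for Bcl2a1a, 0.98 for Bcl2a1b, 3.12 for Bcl2l1 and -1.51 for Bcl2. At least 149 reads lay behind each value of a member, and the effect of depth on the calls was not tested. The calls of Bak1 and Bcl2l11 were lost when some single libraries were left out.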
